A study of Mus musculus with 2 samples.

Results

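The genes described here encode extracellular proteases and their inhibitors, and the names also take 12 genes whose products are intracellular. They were taken from the deposited expression table by symbol: matrix metalloproteinases (Mmp), their tissue inhibitors (Timp), the plasminogen activators Plau and Plat with the receptor gene Plaur, serpins (Serpin), ADAM, ADAMTS and ADAMTS-like genes, serine proteases named Prss or Tmprss with St14, the Kunitz inhibitors Spint, Htra proteases, and the proprotein convertases Furin and Pcsk. The table held 89 such genes among its 14261 rows. The cells, mouse embryonic stem (ES) cells with the label TRE-ESC, were grown in suspension, in dishes to which they adhere little, and profiled by RNA-seq. Both cultures had N2B27 medium with LIF, a cytokine, and the kinase inhibitors known as 2i, and both carry the label 36 h. They differed by doxycycline (dox), a drug that switches on genes under a tetracycline-controlled promoter, given to 1 of the 2 cultures. From the series title, the gene induced is that of c-Jun, which pairs with Fos and related proteins to form AP-1. The labels do not give the transgene construct or the parental line, nor whether the cells are 1 clone.

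There was 1 library per group, so no test was made, the spread between cultures is unknown, and all calls below describe these 2 libraries. The deposited values were whole numbers on a normalized scale, with quartiles of 14, 62 and 184 in both libraries. The depth of each library is thus unknown. Values of different genes are not compared with each other, except in sums of cell type markers, which only summarize them. Jun stood at 55 without dox and 3821 with dox. All 11 ES cell markers examined had values above 0 in both libraries, and 8 of them were 2-fold or more lower with dox. Among the 11 were Pou5f1 at 3230 without dox and 3572 with dox and Nanog at 2508 and 623. In a bulk culture, a change in the share of cells of a type and a change in RNA per cell cannot be told apart.

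Proteases of the cell surface and the matrix cut collagens, laminins, growth factor precursors and receptors. They are made as inactive precursors that other proteases cleave, and inhibitors such as TIMPs, serpins and Kunitz-type proteins limit them. Several genes of this group, including those of the urokinase receptor and of collagenases, are textbook targets of AP-1, which binds the letters TGACTCA and close variants.

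Because of that background, the 250 bases before the RefSeq transcription start (build GRCm38.p6) were searched on both strands for TGANTCA, where N is any base, and for TGACGTCA. Both patterns read the same on either strand, and no gene of the set held both. A promoter sequence was matched for 61 of the 89 genes. TGANTCA stood before at least 1 start in 10 of these 61 genes (16.4%), against 581 of 10613 genes of the whole table (5.47%). Of the 10, Mmp3, Mmp12 and Mmp13 lie within 183 kb on chromosome 9, and Serpinb2, Serpinb7 and Serpinb8 within 211 kb on chromosome 1. The 10 promoters are thus not all from separate loci. TGACGTCA stood in 1 of the 61, Pcsk1, against 2.94% of the whole table. The 6 promoters below, 5′ to 3′ with TGANTCA in capitals, were chosen to show that genes with these letters had unlike values. Plaur was more than 2-fold higher with dox, and Prss23, listed at 0 without dox, was called higher through the pseudocount described below. Mmp12 was higher by less than 2-fold, Mmp3 and Mmp13 were listed at 0 in both libraries, and Adam19 was nearly equal.
Plaur, chr7:24462233-24462482, plus strand: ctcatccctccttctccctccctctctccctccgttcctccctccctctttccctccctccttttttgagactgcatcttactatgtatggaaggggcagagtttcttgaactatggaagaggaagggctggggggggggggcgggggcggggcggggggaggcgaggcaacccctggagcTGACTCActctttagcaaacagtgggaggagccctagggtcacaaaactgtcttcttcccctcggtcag
Prss23, chr7:89518182-89518431, minus strand: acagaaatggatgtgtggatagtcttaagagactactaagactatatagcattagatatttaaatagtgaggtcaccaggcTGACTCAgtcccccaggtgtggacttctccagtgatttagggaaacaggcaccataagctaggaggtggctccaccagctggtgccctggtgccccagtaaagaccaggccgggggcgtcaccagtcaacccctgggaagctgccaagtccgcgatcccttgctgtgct
Mmp12, chr9:7347124-7347373, plus strand: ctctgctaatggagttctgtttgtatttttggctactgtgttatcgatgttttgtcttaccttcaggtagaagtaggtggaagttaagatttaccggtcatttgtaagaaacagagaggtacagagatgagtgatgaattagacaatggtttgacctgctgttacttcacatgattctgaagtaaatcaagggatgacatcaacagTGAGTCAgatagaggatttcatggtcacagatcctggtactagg
Mmp3, chr9:7445572-7445821, plus strand: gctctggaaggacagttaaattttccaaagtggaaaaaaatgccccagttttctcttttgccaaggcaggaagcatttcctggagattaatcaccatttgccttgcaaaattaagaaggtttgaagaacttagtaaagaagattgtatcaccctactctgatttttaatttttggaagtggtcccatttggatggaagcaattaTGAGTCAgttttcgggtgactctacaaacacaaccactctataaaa
Mmp13, chr9:7272264-7272513, plus strand: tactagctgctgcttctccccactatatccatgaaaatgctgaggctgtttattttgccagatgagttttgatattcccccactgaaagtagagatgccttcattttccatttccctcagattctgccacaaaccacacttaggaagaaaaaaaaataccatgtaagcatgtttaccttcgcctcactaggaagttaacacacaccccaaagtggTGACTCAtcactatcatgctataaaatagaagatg
Adam19, chr11:46055734-46055983, plus strand: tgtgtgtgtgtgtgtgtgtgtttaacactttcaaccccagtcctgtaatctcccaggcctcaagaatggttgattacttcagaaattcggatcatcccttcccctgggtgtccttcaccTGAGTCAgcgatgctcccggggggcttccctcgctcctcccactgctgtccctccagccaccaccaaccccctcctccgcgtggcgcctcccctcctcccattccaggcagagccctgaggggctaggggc
The letters TGACTCA begin 69 bases before the start of Plaur and 35 bases before that of Mmp13. The letters TGAGTCA begin 44 bases before the start of Mmp12 and 46 bases before that of Mmp3. The match in Prss23 lies further out, at 169 bases, and that in Adam19 at 131 bases. The other matches were in Serpinb2, Serpinb7, Serpinb8 and Prss36, whose values were 0 and 0, 0 and 0, 11 and 19, and 18 and 8 without and with dox. Of the 10 genes with the letters, 2 were therefore called higher, Prss23 among them from a 0 without dox. Another 2 were within 2-fold and 6 had both values under 50. A match describes the sequence and does not show that a factor binds there.

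Ratios were computed as log2 of the value with dox plus 10, over the value without dox plus 10, which understates the difference of low values. A gene was called higher or lower at 2-fold or more, where the larger of its values was at least 50. Of the 89 genes 35 reached that floor, and 54 had both values under it. Among the 35 genes, 12 were called higher with dox, where 9.23% of 8547 genes of the whole table were called higher. Another 2 were called lower, where 5.49% of the whole table were, and 21 were within 2-fold. The median log2 ratio of the 35 genes was 0.69, beside −0.08 for the 8547 genes. A gene under 50 without dox can reach the floor only through its value with dox, so these counts do not stand for all 89 genes. Of the 12 called higher, only St14 at 324 and Furin at 156 were at 50 or more without dox. The others entered through the dox library alone, and the 2 called lower entered through the library without dox alone. Over the 89 with no floor, 21 were called higher, 4 lower and 64 neither. Of the 76 that were above 0 in a library, these are the same 21 and 4, where 9.21% and 5.84% of the table were called. With a floor on the mean of both values, chosen after the data were seen, 8 of 27 genes were called higher and 0 lower, where 8.08% and 4.57% of the table were. Plaur at 15 and 479 and Timp2 at 0 and 398 still passed that floor through the dox library. The floor on the mean therefore does not remove this limit. With a floor of 250 on the larger value the counts were 4 and 0 of 11 genes, beside 9.56% and 4.71%. At a 4-fold threshold 5 of the 35 genes were higher and 0 lower, beside 3.11% and 0.644%, and at 1.5-fold 19 were higher and 3 lower, beside 16.7% and 17.7%. With a pseudocount of 50, 10 were higher and 0 lower, beside 5.83% and 2.0%.

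**Figure D1:**
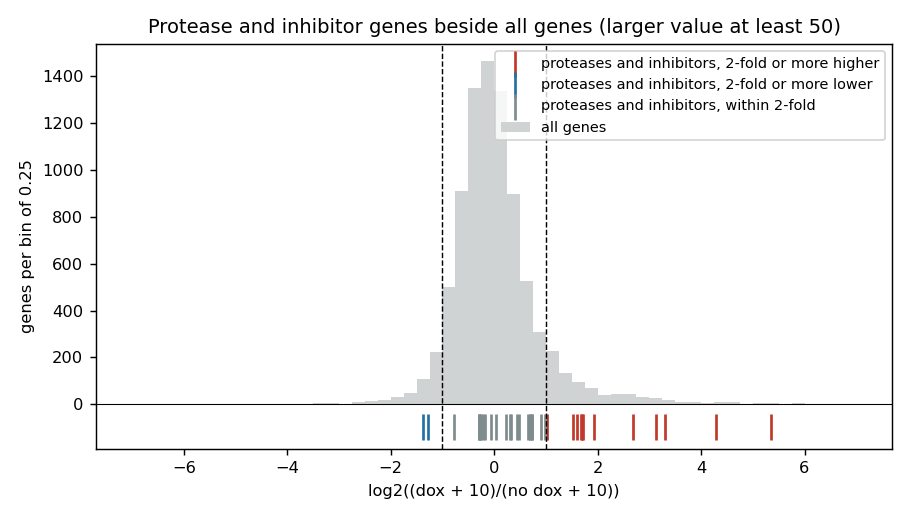
The bars give the number of genes per bin of log2 ratio for the 8547 genes that reached the floor of 50, and the ticks under them give the 35 protease and inhibitor genes, coloured by call. Dashed lines mark 2-fold. The lowest tick is Serping1 at −1.38, and 25 of the 35 (71.4%) lie above 0, beside 44.1% of the 8547 genes. The places of Timp2, Timp3 and Prss23, listed at 0 without dox, are set by the pseudocount.

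Values of 0 were common in the set. Both libraries were at 0 in 13 of the 89 genes (14.6%, against 4.41% of all rows). Another 15 genes (16.9%, against 5.21%) were listed at 0 without dox and above 0 with dox, and 2 genes (2.25%, against 1.60%) the reverse. A value of 0 can be a failed estimate, so no fold is given against it, and such a gene is placed in the plots and counts only through the pseudocount.

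Among the matrix metalloproteinases, zinc enzymes that cut matrix proteins, the membrane-anchored Mmp14 and Mmp15 were higher with dox. Mmp15 stood at 26 without dox and 220 with dox, a log2 ratio of 2.68. Mmp14, whose product activates pro-MMP2 at the cell surface, stood at 32 and 129, a log2 ratio of 1.73. The glycosylphosphatidylinositol-anchored Mmp17 was nearly equal at 21 and 18, and the membrane-type Mmp16 was listed at 0 in both libraries. Of the secreted enzymes, Mmp12, the macrophage elastase gene, stood at 26 and 50 and Mmp11, the stromelysin-3 gene, at 86 and 46. Both were within 2-fold, Mmp12 with a log2 ratio of 0.74 and Mmp11 with one of −0.78. Exons of Mmp11 overlap Chchd10 on the opposite strand, so their reads may not be separable. Mmp2, the gelatinase A gene, was under the floor at 10 and 37. The gelatinase B gene Mmp9 was listed at 0 and 4, Mmp28 at 0 and 4, Mmp23 at 2 and 8 and Mmp19 at 10 and 1. The stromelysin-1 gene Mmp3 and the collagenase gene Mmp13 stood at 0 in both. Of the 13 metalloproteinase genes listed, 4 reached the floor.

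The 3 TIMP genes, whose products bind the active site of metalloproteinases, differed in direction. Timp2 had the value 0 in the library without dox and 398 in that with dox. Its product also takes part in pro-MMP2 activation by binding to MMP14. Timp3, which encodes a TIMP that stays bound to the matrix and whose exons overlap Syn3 on the opposite strand, was listed at 0 and 89. Timp1 was near equal and slightly lower with dox, at 130 and 107, a log2 ratio of −0.26. With the trend of ratio on transcript length removed, the ratio of Timp1 was 0.15, so its direction depends on that step.

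In the plasminogen activation system, a protease cascade at the cell surface, the urokinase receptor gene was higher with dox. This gene, Plaur, stood at 15 without dox and 479 with dox, 19.6-fold higher after the pseudocount, a log2 ratio of 4.29. The gene of its ligand urokinase, Plau, was listed at 0 and 18, and the tissue-type activator gene Plat at 5 and 2, both under the floor. Serpine2, encoding protease nexin-1, stood at 16 and 30, and Serpinb2, encoding PAI-2, at 0 in both. Plaur was thus past 2-fold, while both activators and these serpins were under the floor in both libraries.

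**Figure D2:**
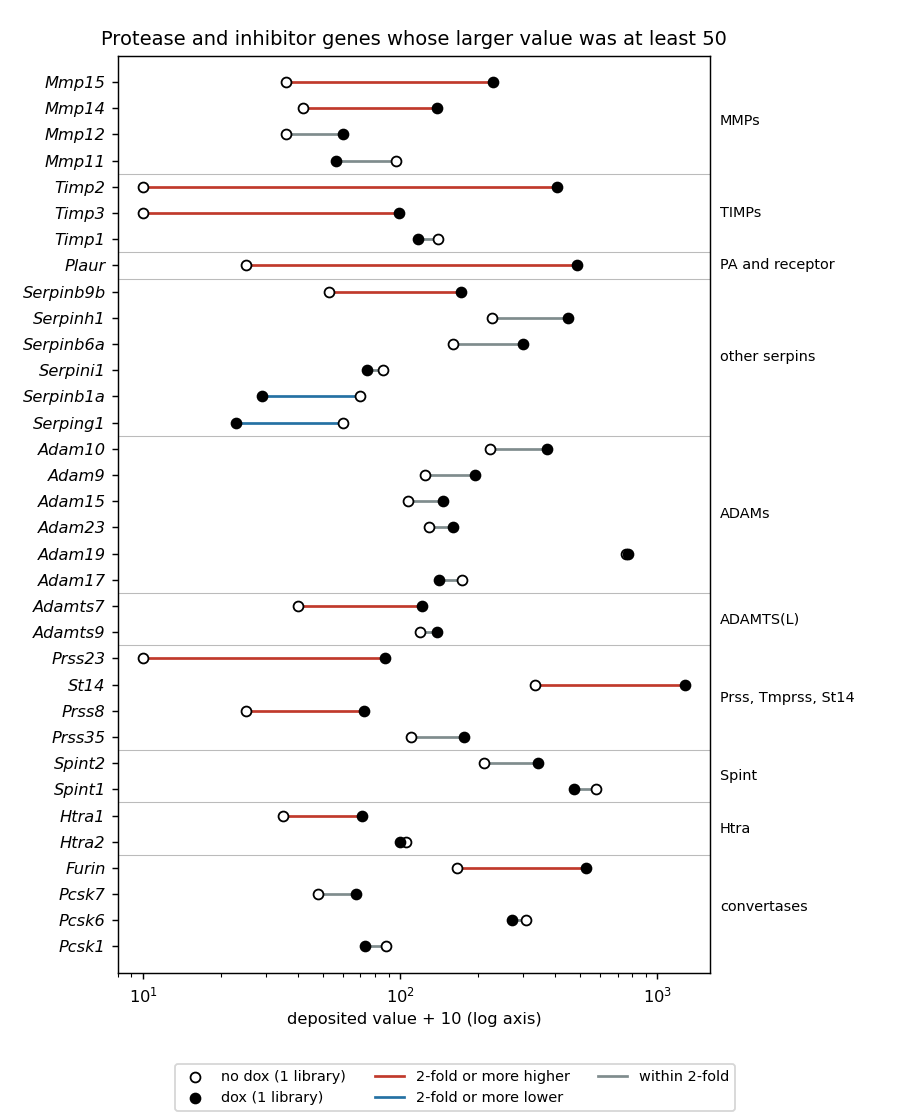
Each line joins the value without dox (open) and with dox (filled) of 1 gene, plus 10, on a log axis, for 34 of the 35 genes that reached the floor of 50, grouped by family. Red lines mark the 12 genes called higher, blue lines the 2 called lower, and grey lines 20 of the 21 within 2-fold.

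Among the serine proteases, the genes of matriptase and prostasin were higher with dox. St14 encodes matriptase, a protease anchored in the membrane of epithelial cells. It stood at 324 and 1271, 3.84-fold higher, a log2 ratio of 1.94. Prss8, which encodes prostasin, a glycosylphosphatidylinositol-anchored protease that acts with matriptase, stood at 15 and 62, a log2 ratio of 1.53. Their Kunitz inhibitors were within 2-fold and differed in direction. Spint1 (HAI-1) stood at 568 and 463, a log2 ratio of −0.29, and Spint2 (HAI-2) at 201 and 332, a log2 ratio of 0.70. The proteases were thus called higher and their inhibitors were not, though no test of that contrast was possible. For Prss8 the contrast depends on the settings, since only its value with dox reached the floor. Raising the pseudocount to 50 brought Prss8 inside 2-fold (log2 ratio 0.785), like Spint2 (0.61). St14 stayed past 2-fold (1.82). Tmprss2, another membrane-anchored serine protease gene, was listed at 0 and 40, under the floor. The secreted serine protease gene Prss23, whose exons overlap the antisense gene Prss23os, was listed at 0 and 77. Exons of Prss8 overlap Kat8 on the opposite strand, and Kat8 stood at 42 and 29. Prss35, whose product is a secreted protease-like protein, was within 2-fold at 100 and 167. Prss12, Prss16, Prss36 and Prss41 had both values at 20 or lower.

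Of the proprotein convertases, which cleave precursors in the secretory pathway, Furin was higher with dox and the others were within 2-fold or not detected. Furin, whose product activates many precursors, among them pro-MMP14, stood at 156 and 518, 3.18-fold higher, a log2 ratio of 1.67. Pcsk6, encoding PACE4, stood at 298 and 262, Pcsk1 at 78 and 63 and Pcsk7 at 38 and 57. Pcsk5 was listed at 0 in both. Furin was thus the only 1 of the 5 convertase genes called in these libraries. Bmp1, a procollagen C-proteinase gene outside the set, stood at 6 and 161.

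The ADAM family, mostly membrane-anchored enzymes that release the outer parts of surface proteins, had 6 genes at the floor. None of the 6 was called, where 9.23% of 8547 genes of the whole table were called higher and 5.49% lower. In so few genes, no call is close to those shares. Adam10, which cleaves Notch, stood at 214 and 363, a log2 ratio of 0.74, and Adam9 at 115 and 186. Adam17, which releases TNF and ligands of the EGF receptor, stood at 164 and 132. Adam19 was listed at 742 and 760, Adam15 at 97 and 136 and the catalytically inactive Adam23 at 119 and 151. These ratios ran from −0.29 for Adam17 to 0.74 for Adam10. The other ADAM genes were under the floor. Adam22 and Adam11, whose products are catalytically inactive as well, stood at 31 and 49 and at 26 and 5. Adam12 stood at 2 and 22, Adam8 at 3 and 17, and Adam28 and Adam33 at 0 in both.

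Of the 17 ADAMTS and ADAMTS-like genes, whose products are secreted and bind the matrix, 15 were under the floor, none of them above 16. Adamts7, whose exons overlap Tbc1d2b on the opposite strand, was higher with dox at 30 and 111, a log2 ratio of 1.60. Adamts9, encoding a proteoglycan-cleaving enzyme, was within 2-fold at 109 and 129. The aggrecanase genes Adamts4 and Adamts5 stood at 8 and 3 and at 0 in both. Of the Htra serine proteases, the secreted Htra1 stood at 25 and 61, a log2 ratio of 1.02, the smallest ratio called higher. Htra2, whose product resides in mitochondria although the name rule takes it, stood at 95 and 90, and Htra3 at 0 and 3.

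The serpins held both of the genes called lower. Serping1, which encodes the C1 inhibitor of the complement and contact systems, stood at 50 without dox and 13 with dox, a log2 ratio of −1.38. Serpinb1a, which encodes an inhibitor of neutrophil elastase, stood at 60 and 19, a log2 ratio of −1.27. With a pseudocount of 50 neither was past 2-fold, at −0.67 and −0.67, and with the floor on the mean neither was counted. Serpinb9b, a member of the clade of granzyme B inhibitors, was higher with dox at 43 and 163, a log2 ratio of 1.71. Its transcript resembles that of Serpinb9, and that of Serpinb6a resembles Serpinb6b, so reads may have been divided between these copies. Serpinh1, which encodes the collagen chaperone HSP47 and is not an inhibitor, stood at 217 and 439. Its log2 ratio of 0.98 was the nearest outside the 2-fold threshold and passed it with a pseudocount of 1 (1.01), with centring on the median of all genes (1.06) and with the length trend removed (1.18). Serpinb6a stood at 150 and 289, a log2 ratio of 0.90, which was 1.11 with the length trend removed. The neuroserpin gene Serpini1 was within 2-fold at 76 and 64.

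The other 13 serpins outside the plasminogen system were under the floor. Serpinf1, which encodes the angiogenesis inhibitor PEDF, was listed at 0 and 40, and Serpina7, the thyroxine-binding globulin gene, at 0 and 14. Serpinc1, the antithrombin gene, stood at 36 and 2 and shares exon sequence with Zbtb37 on the opposite strand. The remaining ones had values of 24 or lower, among them the 5 Serpina3 genes at 4 or lower.

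**Figure D3:**
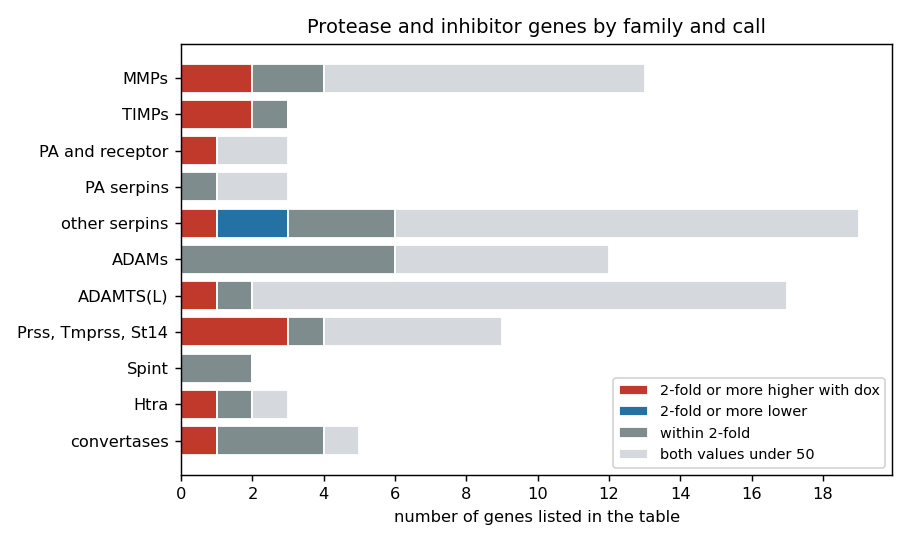
The bars give the number of genes listed per family, divided into those 2-fold or more higher with dox, those 2-fold or more lower, those within 2-fold, and those with both values under 50. PA stands for plasminogen activator. The 2 genes called lower are in the bar of other serpins. The bars of ADAM genes, Spint genes and PA serpins hold no called gene, but also few genes at the floor. Of all 8547 genes at the floor, 9.23% were called higher and 5.49% lower.

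By role, as known from textbooks and assigned with the values already known, 8 of the 20 catalytic protease genes at the floor were called higher and 0 lower, beside 9.23% and 5.49% of all 8547 genes. Of the 11 inhibitor genes at the floor 3 were called higher, Timp2, Timp3 and Serpinb9b, and 2 lower. By place, 6 of the 15 genes at the floor whose products sit in a membrane were called higher and 0 lower: Mmp14, Mmp15, Plaur, St14, Prss8 and Furin. Of the 15 secreted ones 5 were called higher and 1, Serping1, lower. The shares over all genes, 9.23% and 5.49%, are the background for these counts too. Of the 5 genes at the floor with intracellular products, 1 was called higher, Serpinb9b, and 1 lower, Serpinb1a, beside the same shares. The median log2 ratios were 0.70 for the membrane group, 0.31 for the secreted group and 0.90 for the intracellular group. Whether these groups differ was not tested. Of the genes called higher in these groups, only St14 and Furin were at 50 or more without dox. The others entered the counts through the dox library alone, so the counts do not stand for whole roles or places.

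Neighbouring genes of the set (GENCODE M21 on GRCm38) did not always share a direction. Within gaps of at most 500 kb, 24 of the 89 genes lay in 8 groups. On chromosome 13, Serpinb1a (32842092 to 32851185) and Serpinb9b (33027416 to 33041884) lay in a span of 199.8 kb, and the first was lower and the second higher with dox. Serpinb9, beside Serpinb9b, stood at 12 and 24, and Serpinb6b between them at 4 and 7. On chromosome 7, Prss8 (127925716 to 127930104) was higher, while its neighbour Prss36 (127932638 to 127946725) stood at 18 and 8. On chromosome 9, Mmp12 was listed between Mmp13 and Mmp3, both at 0, within 183 kb. St14 (31089402 to 31131853, chromosome 9) lay near Adamts8 and Adamts15, which stood at 12 and 4 and at 4 and 1. Other genes called higher lay in no such group, among them Plaur on chromosome 7 (24462484 to 24475968), Timp2 on chromosome 11 (118301069 to 118355740), Timp3 on chromosome 10 (86300372 to 86349506) and Mmp15 on chromosome 8 (95352268 to 95375080).

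**Figure D4:**
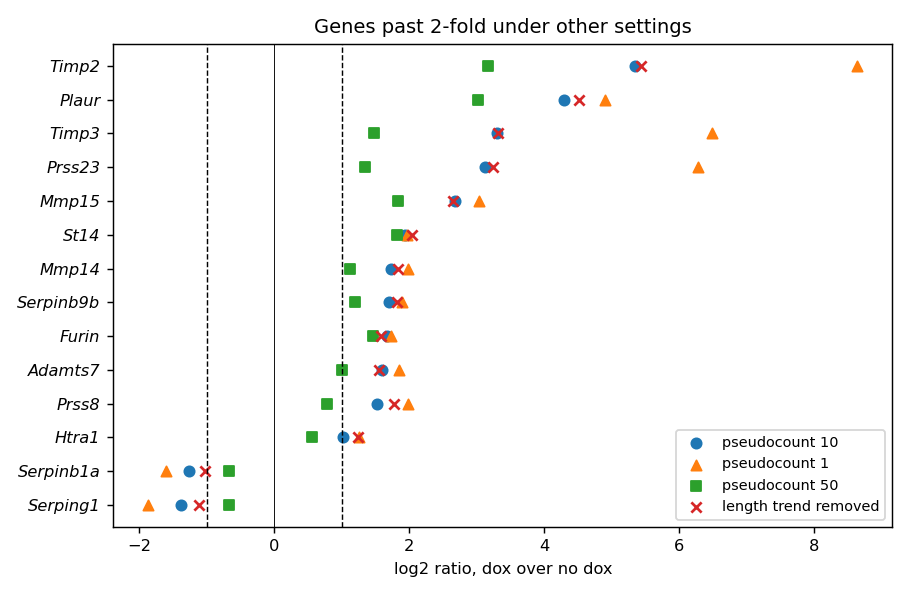
Points give the log2 ratio of the 14 genes past 2-fold with a pseudocount of 10, and the same with a pseudocount of 1, of 50, and with the trend on transcript length removed. Dashed lines mark 2-fold. The ratios of Timp2, Timp3 and Prss23, listed at 0 without dox, spread most, and those of Htra1, Prss8, Serpinb1a and Serping1 come inside 2-fold with a pseudocount of 50.

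Partners of these proteases outside the name rule were taken from a list of 64 genes, of which 47 were in the table and 25 reached the floor. Of these 25, 12 were called higher with dox and 1 lower, with a median log2 ratio of 0.78. Over all 8547 genes 9.23% were called higher and 5.49% lower, with a median of −0.08. Anxa2, Bmp1, Cpe, Ctsz and Rhbdf1 were under 50 without dox and entered these counts through the dox library alone. The rest called higher were at 50 or more without dox. The counts therefore do not stand for the whole list, and no other floor was tried on it. All 4 plasminogen-binding and clearance genes at the floor were higher, Anxa2 with that limit. Anxa2, whose product with that of S100a10 binds plasminogen at the cell surface, stood at 27 and 1249, and S100a10 at 115 and 587. The endocytic receptor gene Lrp1, whose product clears protease-inhibitor complexes, stood at 137 and 290. The thrombin receptor gene F2r stood at 56 and 152, whereas F2rl1, the gene of a receptor that matriptase can activate, was within 2-fold at 122 and 150.

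Of the other proteases on that list, Cpe, a carboxypeptidase gene, stood at 29 and 399, and Cpd, of the same enzyme class, at 68 and 169, both higher as Bmp1 was. The lysosomal cathepsins Ctsb and Ctsz, which can be secreted, were higher at 594 and 1294 and at 49 and 154. Ctsl, Ctsd and Ctsc were within 2-fold. The cystatins, inhibitors of cathepsins, were called in opposite directions: the secreted Cst3 stood at 330 and 140, and the cytosolic Cstb at 302 and 826. Rhbdf1, a cofactor gene of ADAM17 transport, stood at 24 and 79, and Rhbdf2 at 74 and 56. Reck, a membrane-anchored inhibitor of metalloproteinases, was under the floor at 24 and 31, and Bsg, which encodes the inducer of metalloproteinases basigin, stood at 827 and 770.

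Several of these proteases are also made by other cell types, so their markers are given. Sums over markers are only a summary, since values of different genes may not be comparable on this scale. Of 8 macrophage and blood cell markers 4 were in the table, with a summed value of 20 without dox and 226 with dox. Csf1r stood at 1 and 111, Cd68 at 19 and 96 and Ptprc at 0 and 19, while Lyz2 was at 0 in both. Of 12 fibroblast markers the sum was 55 and 303, mostly from Col5a1 at 20 and 220, and Dcn, Lum and Fap were at 0 in both. Of 11 trophoblast markers 9 were listed, with sums of 235 and 991. The keratins Krt7 and Krt18 made up 374 and 395 of the sum with dox. Tfap2c, the largest part of the sum without dox, fell from 159 to 113, and Eomes from 32 to 18. Cdx2 changed little, from 28 to 34. Hand1, Ascl2, Gata3 and Plac1 had larger values in the dox library, each 23 or less. Endoderm markers summed to 21 and 31 over 5 listed genes, and endothelial markers to 308 and 227 over 5. The part of any such cells in the protease values was not tested.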

How the data were processed

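RNA-seq was made from total RNA of 2 suspension cultures with an Illumina TruSeq RNA kit on a NextSeq 500, per the labels' protocols. bcl2fastq, Bowtie2, RSEM and the build mm10 are named in the submitters' processing notes, with no role or order. Versions, annotation and normalization: not given in the sources used here. These deposited values are a score on a normalized, rounded scale: both libraries share their quartiles and highest value (14907), so no count model was used and the depth behind a value is unknown. Groups followed the agent in the labels. No other sample column was left unused (0).

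The log2 ratio used a pseudocount of 10, a floor of 50 on the larger value and a 2-fold threshold. With 1 library per group there is no test. Genes were taken by symbol, and the set, lists, families, roles and alternatives were chosen with earlier results of these data known. Genes named were Jun, every gene past 2-fold at the floor, up to 4 others per family with the largest values, and partner genes past 2-fold. Others are named after their values were seen, and some genes that the rule takes are not reported here. Positions and longest transcripts came from GENCODE M21, on which all 89 symbols matched, and promoters from RefSeq on GRCm38.p6. The length trend was removed with lowess (fraction 0.3). Shared sequence was sought with BLAST 2.17.0. The work used Python 3.11.15 with pandas 2.3.3, numpy 2.4.6, scipy 1.17.1 and statsmodels 0.14.6. The calling step was tested on simulated data. These were counts with changes planted only in genes of higher values. They differ from a normalized score, so that test does not bear on the calls of low values above.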

Additional observations from a re-analysis of the deposited data

How the results depend on the processing

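Pseudocounts of 1 and 50, median centring and removal of the length trend kept the direction of every gene past 2-fold. Of the 35 genes at the floor, 12 were called higher and 2 lower. With no floor beyond a value above 0 these counts were 21 and 4 of 76, and with a floor of 250 they were 4 and 0 of 11. A 1.5-fold threshold gave 19 higher and a 4-fold threshold 5 higher and 0 lower. With a pseudocount of 50 there were 10 higher and 0 lower, and with the floor on the mean 0 lower. The median log2 ratio of 0.69 became 0.52 at a pseudocount of 50, 0.47 without the floor, 0.90 at a floor of 250 and 0.57 without genes listed at 0, the last and the floor on the mean being chosen after the data were seen. The other alternatives stayed within 1.5 times of both counts. Fewer genes enter under the higher floors; otherwise the cause was not tested. No paired analysis was possible because each group has 1 library. Leaving out a library would leave no comparison, and the depth is unknown.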

Other observations

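Sequence shared between genes touches some of these values. The labels do not say whether the libraries kept strand, and exons of several of the genes overlap exons on the opposite strand. An exon of Serpinc1 and one of Zbtb37 share 2942 bases, and Zbtb37 stood at 97 without dox and 47 with dox, beside 36 and 2 for Serpinc1. Exons of Mmp11 and Chchd10 share 155 bases, and Chchd10 stood at 389 and 189, beside 86 and 46 for Mmp11. Exons of Prss23 overlap Prss23os by 864 bases, which was listed at 0 and 13. Exons of Prss8 overlap Kat8 by 122 bases, and Kat8 stood at 42 and 29, the opposite direction to Prss8. Adamts7 overlaps Tbc1d2b by 122 bases, at 30 and 48. Exons of Timp3 overlap Syn3 by 1733 bases, and no value was listed for Syn3. The part of these neighbours in the protease values was not tested.

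Among serpins, the longest transcripts of Serpinb9 and Serpinb9b aligned over 1424 bases at 84.9% identity, and those of Serpinb6a and Serpinb6b over 447 bases at 90.2%. The Serpina3 genes aligned with each other at 82.1% to 89.0%. The values of such copies depend on how reads were shared between them, so those of Serpinb9b and Serpinb6a are uncertain to that extent. The transcripts of St14 and Mmp12 share a stretch of 604 bases at 85.3% identity, parts of which other transcripts also hold.

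Over all genes of the table, TGANTCA stood in the 250 bases before the start of 9.42% of the 605 genes called higher that had a promoter sequence, of 5.68% of the 352 called lower and of 4.39% of the 5736 within 2-fold. Of the 9 protease and inhibitor genes called higher with a promoter sequence 2 held it, Plaur and Prss23. No promoter sequence was matched for St14, Prss8 or Adamts7.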
